A study of Mus musculus with 2 samples.

Results

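The mitochondrial protein import machinery was described in brown adipose tissue, a fat depot specialised to make heat, through the genes whose symbols mark them as subunits of the translocases of the outer membrane (Tomm) and inner membrane (Timm), together with Pam16, Dnlz, Grpel1, Grpel2, Pmpca, Pmpcb, Samm50, Mtx1 and Mtx2. By symbol, 36 genes of the RefSeq annotation met this rule. A pseudogene, Timm29-ps1, and a noncoding RNA, Tomm6os, were set apart, which left 34 protein-coding genes. Of these, 32 were listed among the 16174 genes of the libraries, and all 32 reached 1 FPKM (fragments per kilobase of transcript, scaled to library size) in at least 1 library. Timm8a2 and Tomm20l were listed in neither library.

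The study had 1 library per genotype, both from brown adipose tissue of female C57BL/6 mice that were fed chow for 45 weeks and were 45 weeks old. The D3BKO library came from D3Bfl/fl-UCP1-Cre+/- mice and held 10068359 expected counts. The D3BWT library came from D3Bfl/fl mice and held 9666528 expected counts. Both genotypes carry the floxed D3B alleles, where D3B is read as Dnmt3b, the gene of a de novo DNA methyltransferase. The Cre is driven by the promoter of Ucp1, the uncoupling protein of brown adipocytes, so other cells of the tissue keep an intact allele. The label of the D3BWT library names no Cre, and the D3BKO library was run on lane 1 and the D3BWT library on lane 2, so Cre, lane and loss of D3B cannot be told apart. How many mice a library pools is not stated in the labels. With 1 library per genotype the variation among mice is unknown, and no difference below has a replicate check or a p-value. The interval after each ratio is a 95% exact interval from the expected counts. It covers counting error only and takes every read as an independent molecule.

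Almost all mitochondrial proteins are encoded in the nucleus, made in the cytosol and carried into the organelle. They enter through the TOM complex of the outer membrane. From there, the SAM complex inserts barrel-shaped proteins into the outer membrane, small TIM chaperones guide hydrophobic carriers across the intermembrane space to the TIM22 complex, and the TIM23 complex with its PAM motor draws proteins with a presequence into the matrix, where a processing peptidase removes the presequence. Brown adipocytes are packed with mitochondria, and carriers such as Ucp1 are among the proteins they import.

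The stretches before the transcription start are shown for the 4 genes that lay furthest below the D3BWT library (Timm50, Timm13, Timm44 and Pam16), for the outer membrane genes Tomm40 and Tomm22, and for Pmpcb, which was higher in the D3BKO library. Each stretch is the 120 bases just before the start, 5′ to 3′ on the strand of the gene, from the RefSeq promoter table of build GRCm38.p6. Capitals mark matches, on either strand, to the motif CCGGAAG of ETS factors such as the GA-binding protein, or to the motif GCGCANGCG of NRF1, both known as regulators of nuclear genes for mitochondria.
Timm50, chr7:28312047-28312166, minus strand: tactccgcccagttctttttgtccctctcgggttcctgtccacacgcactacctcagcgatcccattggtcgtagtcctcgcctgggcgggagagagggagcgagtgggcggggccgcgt
Timm13, chr10:80900970-80901089, minus strand: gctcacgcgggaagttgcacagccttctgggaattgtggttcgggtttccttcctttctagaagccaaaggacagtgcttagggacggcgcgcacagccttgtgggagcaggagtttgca
Timm44, chr8:4275906-4276025, minus strand: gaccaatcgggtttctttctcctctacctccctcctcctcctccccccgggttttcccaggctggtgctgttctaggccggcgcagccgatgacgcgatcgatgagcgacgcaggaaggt
Pam16, chr16:4624947-4625066, minus strand: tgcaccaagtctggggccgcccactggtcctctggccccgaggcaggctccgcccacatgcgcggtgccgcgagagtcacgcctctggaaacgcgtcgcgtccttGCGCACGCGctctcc
Tomm40, chr7:19715430-19715549, minus strand: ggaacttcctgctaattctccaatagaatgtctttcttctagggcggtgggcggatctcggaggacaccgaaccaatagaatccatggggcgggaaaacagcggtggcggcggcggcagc
Tomm22, chr15:79670748-79670867, plus strand: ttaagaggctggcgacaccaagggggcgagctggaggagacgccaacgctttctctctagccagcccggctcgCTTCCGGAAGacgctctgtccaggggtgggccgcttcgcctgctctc
Pmpcb, chr5:21737040-21737159, plus strand: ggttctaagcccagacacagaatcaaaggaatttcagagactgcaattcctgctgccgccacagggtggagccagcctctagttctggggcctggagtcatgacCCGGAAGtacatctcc
The stretches of Timm50, Timm13, Timm44 and Tomm40 held neither motif, although Timm13 has an NRF1 match further upstream, 193 bases before the start. In Tomm22 the capitals are a pair of overlapping ETS matches on opposite strands, in Pmpcb a single ETS match, and in Pam16 the NRF1 motif.

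As a whole, transcripts of the import machinery stood slightly lower in the D3BKO library. The 32 genes summed to 2841 FPKM in the D3BKO library and 3272 FPKM in the D3BWT library, and the ratio of these sums was 0.868. The summed FPKM of all tested genes also differed, with a ratio of 0.941. Differences are given as log2((FPKM + 1) in D3BKO / (FPKM + 1) in D3BWT), which slightly understates the difference of low genes. On this log2 scale 29 of 32 genes lay below 0, where 53.8% of the 11746 tested genes did (tested means at least 1 FPKM in either library). The median log2 ratio was -0.18 over the 32 genes and -0.03 over all tested genes. With both libraries set to the same FPKM total, 23 of the 32 genes lay below 0 and the median log2 ratio over the 32 was -0.09. This rescaling adds 0.09 to the log2 ratio of every well-expressed gene, so the 53.8% does not serve as its background. No share over all tested genes is given at this scaling. For 17 of the 32 genes the counting interval of the ratio lay wholly below 1, against 22.5% of all tested genes, and for 2 it lay wholly above 1, against 18.1%. Narrow intervals are more common in well-counted genes. Among the 6173 tested genes in the same range of mean count (205 to 4338) the share below 1 was 25.95%. Only the ends of this range were matched, not the spread of counts within it, so this comparison does not settle the part of depth.

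The individual differences were small. No import gene was at least 1.5-fold lower or at least 1.5-fold higher on the log2 scale with an interval that excluded 1, where 3.41% and 4.35% of all tested genes were. At a smaller threshold of 0.32 on the log2 scale, 4 genes were lower (Timm50, Timm13, Timm44 and Pam16) and none was higher, where the shares over all tested genes were 11.7% and 10.4%. With both libraries set to the same FPKM total, 2 genes were lower (Timm50 and Timm13) and 1, Grpel2, was higher, and Grpel2 also passed with a pseudocount of 0.1. The shares over all tested genes are given for the deposited values only. The 12.5% of import genes below this smaller threshold was therefore near the background. The count by sign departed from that over all tested genes, while the count of lower genes past the smaller threshold did not. On the higher side none passed as deposited, against the 10.4% of all tested genes. Among tested genes in the same range of mean count, 9.67% were lower and 7.58% higher at this threshold. The share below 0 also varied with transcript length. It was 68.3% of all tested genes in the shortest of 10 length classes and 62.3% in the next. All 32 genes had counts within 0.05 of a whole number in both libraries, so none carried a fraction of reads divided with a near-identical gene.

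**Figure D1:**
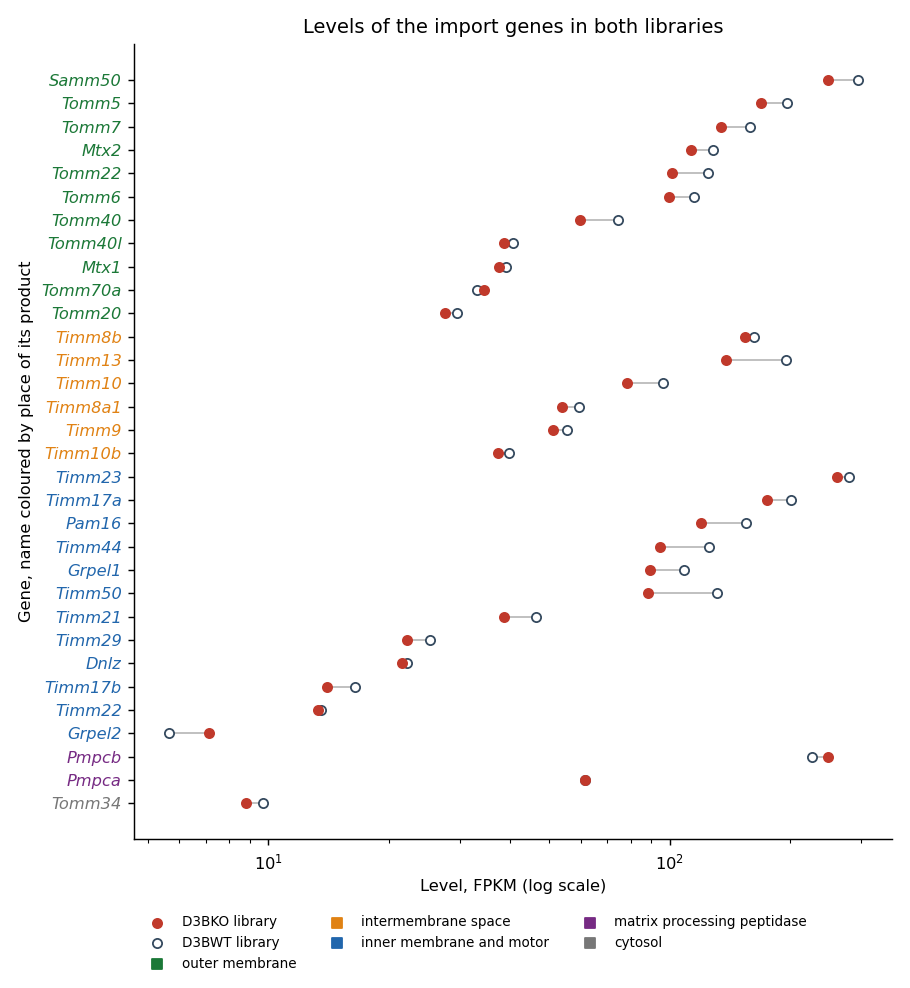
Level of each import gene in FPKM on a log axis, with the D3BKO library as filled and the D3BWT library as open points and gene names coloured by the place of the product. The filled point lies left of the open one in 29 of 32 genes. Levels span 7.11 to 261 FPKM in the D3BKO library and 5.65 to 295 FPKM in the D3BWT library.

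The TOM complex is the entry gate, and its genes differed in a narrow band. Tomm40 encodes its channel and was at 59.8 FPKM (917 expected counts) in the D3BKO library and 74.3 FPKM (1099 expected counts) in the D3BWT library, a ratio of 0.805 (0.736 to 0.878). Tomm22, a receptor that also holds the complex together, was at 101 FPKM (988 counts) in the D3BKO library and 125 FPKM (1172 counts) in the D3BWT library, a ratio of 0.810 (0.743 to 0.882). Both intervals lay below 1. The small subunits Tomm5, Tomm6 and Tomm7, which stabilise the channel, were at 169, 99.7 and 134 FPKM in the D3BKO library and at 196, 115 and 159 FPKM in the D3BWT library. Their ratios lay close together, at 0.862 (0.790 to 0.937), 0.865 (0.789 to 0.945) and 0.845 (0.786 to 0.906). The noncoding RNA Tomm6os overlaps Tomm6 on the opposite strand and has counts of its own, but the labels' protocols do not mention strand, so where they overlap the assignment of reads between them is uncertain.

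Tomm20 and Tomm70a are the receptors that first bind the precursor proteins. Tomm20, the receptor for presequences, was at 27.6 FPKM (1376 counts) in the D3BKO library and 29.5 FPKM (1410 counts) in the D3BWT library, a ratio of 0.938 (0.869 to 1.01). Tomm70a, the receptor for carriers delivered by cytosolic chaperones, was at 34.6 FPKM (1299 counts) in the D3BKO library and 33.0 FPKM (1193 counts) in the D3BWT library, a ratio of 1.05 (0.966 to 1.13). The intervals of both included 1, so at this depth no difference was detectable for either receptor. They also have the longest listed transcripts of the outer membrane genes, 4986 bases for Tomm20 and 3778 bases for Tomm70a.

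Samm50, the core of the machinery that inserts barrel proteins, was the most abundant outer membrane gene, at 248 FPKM (4049 counts) in the D3BKO library and 295 FPKM (4626 counts) in the D3BWT library, a ratio of 0.841 (0.805 to 0.877). Its partner Mtx2, a metaxin on the cytosolic face, was at 113 FPKM (1373 counts) in the D3BKO library and 128 FPKM (1494 counts) in the D3BWT library, a ratio of 0.883 (0.819 to 0.950). The other metaxin, Mtx1, was at 37.6 FPKM (557 counts) in the D3BKO library and 39.0 FPKM (555 counts) in the D3BWT library, with a ratio of 0.964 (0.855 to 1.09) that did not exclude equality. Over the 11 listed outer membrane genes, 10 lay below 0 on the log2 scale, 7 had an interval below 1, and the median log2 ratio was -0.21.

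The small TIM proteins form ring-shaped chaperones in the intermembrane space. Timm13, which pairs with Timm8 proteins, was at 139 FPKM (1634 counts) in the D3BKO library and 195 FPKM (2214 counts) in the D3BWT library, a ratio of 0.709 (0.664 to 0.756). Its partners did not share that value. Timm8b was at 154 FPKM (733 counts) in the D3BKO library and 162 FPKM (741 counts) in the D3BWT library, a ratio of 0.952 (0.856 to 1.05), and Timm8a1 was at 53.9 FPKM (619 counts) in the D3BKO library and 59.5 FPKM (657 counts) in the D3BWT library, a ratio of 0.906 (0.809 to 1.01). In the other ring, Timm10 was at 78.3 FPKM (494 counts) in the D3BKO library and 96.4 FPKM (585 counts) in the D3BWT library, a ratio of 0.812 (0.718 to 0.915). Its ring partner Timm9 was at 51.2 FPKM (419 counts) in the D3BKO library and 55.6 FPKM (447 counts) in the D3BWT library, a ratio of 0.921 (0.802 to 1.05). Timm10b, which docks the ring at TIM22, was at 37.4 FPKM (361 counts) in the D3BKO library and 39.9 FPKM (370 counts) in the D3BWT library, a ratio of 0.938 (0.808 to 1.09). All 6 listed genes lay below 0, with a median log2 ratio of -0.13, and with Timm13 among them the mean was -0.20.

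The largest difference of the set, and 3 of the 4 past the smaller threshold, were in the inner membrane. These 3 were 25% of the 12 inner membrane and motor genes, against 11.7% of all tested genes. The count depended on the setting. With the same FPKM total only Timm50 of the 3 passed, and after centring by length or GC class Pam16 did not. Timm50, the receptor that takes presequences from TOM to TIM23, was at 88.4 FPKM (1002 counts) in the D3BKO library and 132 FPKM (1434 counts) in the D3BWT library, a ratio of 0.672 (0.618 to 0.728). Timm44, which anchors the mitochondrial Hsp70 motor at the channel, was at 94.5 FPKM (1662 counts) in the D3BKO library and 125 FPKM (2118 counts) in the D3BWT library, a ratio of 0.754 (0.706 to 0.804). Pam16, a regulator of the motor's J-protein, was at 119 FPKM (597 counts) in the D3BKO library and 155 FPKM (744 counts) in the D3BWT library, a ratio of 0.772 (0.691 to 0.859). Timm50 works on the side of the TIM23 channel that faces the intermembrane space, and Timm44 and Pam16 on the matrix side.

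The channel subunits themselves lay closer to equality. Timm23, which forms the core of the translocase, was the most abundant import gene of the D3BKO library at 261 FPKM (2915 counts), against 280 FPKM (3004 counts) in the D3BWT library, a ratio of 0.933 (0.885 to 0.981). Its partner Timm17a was at 175 FPKM (1519 counts) in the D3BKO library and 201 FPKM (1678 counts) in the D3BWT library, a ratio of 0.870 (0.810 to 0.932). Timm21, a subunit that couples TIM23 to TOM and to the respiratory chain, was at 38.6 FPKM in the D3BKO library and 46.4 FPKM in the D3BWT library, a ratio of 0.832 (0.735 to 0.940).

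The TIM22 complex inserts carriers into the inner membrane, and its genes were among the less abundant import genes in both libraries. Timm22, its pore, was at 13.3 FPKM (369 counts) in the D3BKO library and 13.5 FPKM (360 counts) in the D3BWT library, a ratio of 0.986 (0.850 to 1.14). Timm29, a subunit of the same complex, was at 22.2 FPKM in the D3BKO library and 25.2 FPKM in the D3BWT library, a ratio of 0.879 (0.791 to 0.974). Dnlz, which keeps mitochondrial Hsp70 soluble, was at 21.6 FPKM in the D3BKO library and 22.1 FPKM in the D3BWT library, a ratio of 0.975 (0.870 to 1.09). Over the 12 inner membrane and motor genes, 11 lay below 0, 8 had an interval below 1, and the median log2 ratio was -0.21.

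The genes of the matrix processing peptidase were not lower in the D3BKO library. Pmpcb, its catalytic subunit, was at 248 FPKM (3853 counts) in the D3BKO library and 226 FPKM (3376 counts) in the D3BWT library, a ratio of 1.10 (1.05 to 1.15). Pmpca, the subunit that recognises substrates, was at 61.6 FPKM (1908 counts) in the D3BKO library and 61.7 FPKM (1837 counts) in the D3BWT library, a ratio of 0.998 (0.935 to 1.06). Tomm34, despite its name a cytosolic co-chaperone, was at 8.78 FPKM (199 counts) in the D3BKO library and 9.69 FPKM (211 counts) in the D3BWT library, a ratio of 0.906 (0.742 to 1.10).

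**Figure D2:**
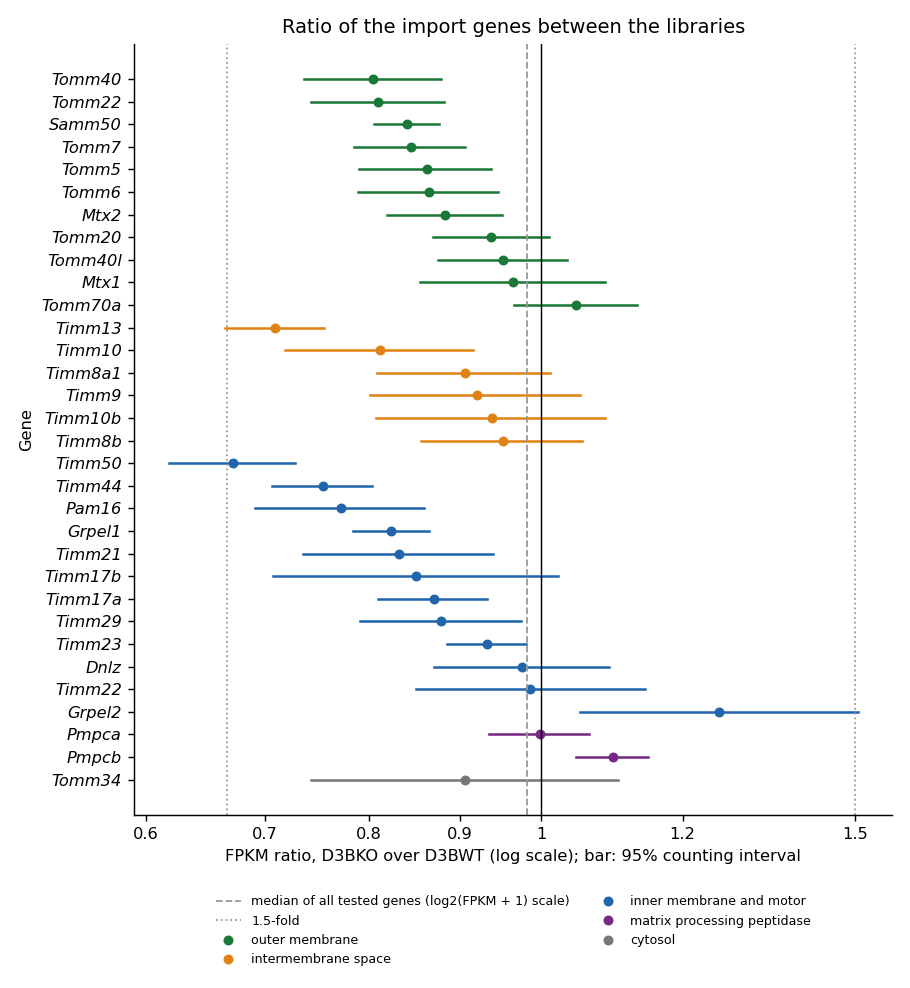
FPKM ratio of D3BKO over D3BWT for each import gene on a log axis, with its 95% counting interval as a bar, grouped by the place of the product. Timm50 has the lowest ratio, 0.672, and Grpel2 the highest, 1.26. The dashed line is the median of all tested genes and the dotted lines mark 1.5-fold.

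Inner and outer membrane genes did not separate by their medians. The median log2 ratio of the inner membrane and motor genes was -0.21 and that of the outer membrane genes -0.21, and the unrounded difference of the medians was -0.00147. Their ranges differed more, from -0.57 to 0.29 for the 12 inner membrane and motor genes and from -0.31 to 0.06 for the 11 outer membrane genes, and the ranges overlap. Within the inner membrane, the 5 motor genes had a median log2 ratio of -0.28, the 5 TIM23 channel genes -0.22 and the 2 TIM22 genes -0.10. Within the outer membrane, the 8 TOM genes had -0.21 and the 3 SAM and metaxin genes -0.18. These are genes of 1 pair of libraries, not replicates, so no test was made between the groups.

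Transcript length moved with these ratios and treated the groups unequally. When all tested genes were split into 10 length classes of equal size, their median log2 ratio was -0.16 in the shortest class (up to 1059 bases) and 0.05 in the longest. Import genes are short, with a median listed length of 1418 bases against 2682 bases over all tested genes, and 16 of the 32 fell into the 2 shortest classes. Spearman's rho between length and log2 ratio was 0.40 across the 32 import genes and 0.16 across all 11746 tested genes, as a description, since genes share libraries and are not independent. The part of length in the lower import values was not tested.

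Set against the median of all tested genes of their own length class, 24 of 32 import genes were lower, and the median log2 difference from that class was -0.07. By their medians the inner membrane and motor genes kept more of their distance than the outer membrane and intermembrane space genes. This difference between groups was not tested. Of the inner membrane and motor genes, 11 of 12 lay below their class and the median was -0.16. Of the outer membrane genes, 9 of 11 did, with a median of -0.08. For the intermembrane space genes, with a median length of 944 bases, 3 of 6 lay below their class and the median was -0.003. Both peptidase genes lay above theirs. After the class median was subtracted, the log2 ratio was -0.47 for Timm50, -0.40 for Timm13, -0.35 for Timm44, -0.27 for Grpel1 and -0.25 for Tomm40. Other genes lost more of their distance, with -0.22 left for Pam16, -0.15 for Tomm22, -0.14 for Timm10 and -0.04 for Timm17a. For 8 of the 32 genes the value after centring lay outside the counting interval of the ratio as deposited, Pam16 and Timm13 among them.

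**Figure D3:**
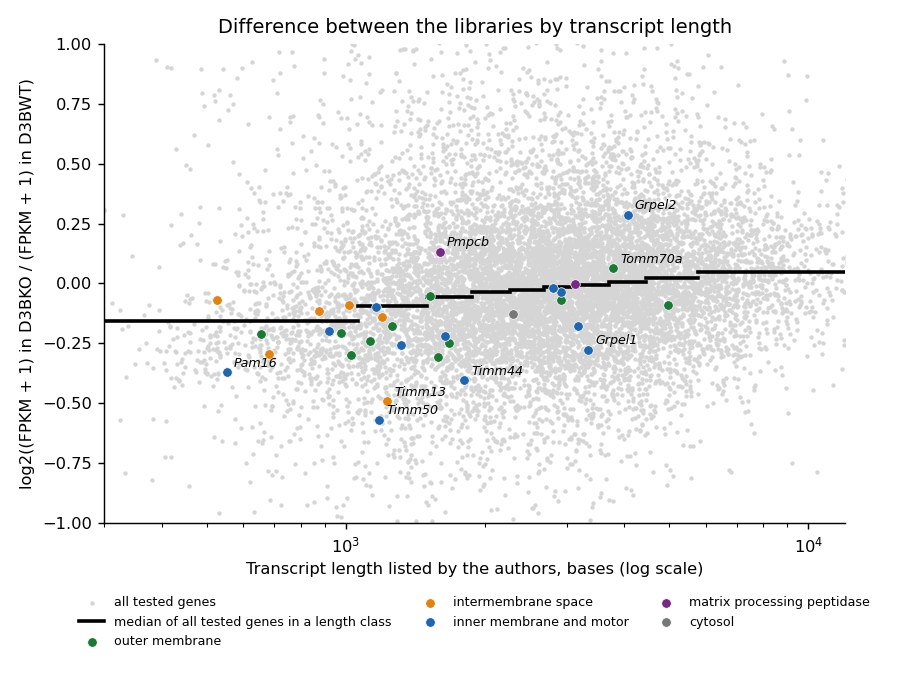
Log2 ratio of D3BKO over D3BWT against the transcript length listed by the authors, on a log axis, for all tested genes (grey) and the import genes (coloured by place), with the median of all tested genes in each of 10 length classes as black steps. The steps climb from -0.16 to 0.05, and Timm50, Timm13 and Timm44 lie well below their step. The axes leave out 198 genes past 2-fold and 116 genes shorter than 300 or longer than 12000 bases, none of them an import gene.

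Several subunits exist as pairs of related or partner genes, and 3 of 7 pairs shifted their balance beyond counting error. Counting intervals often exclude equality. For single genes they lay wholly below 1 in 22.5% and wholly above 1 in 18.1% of all tested genes. No share over other pairs was taken, so the 3 of 7 cannot be called particular to these pairs. The nucleotide exchange factors of mitochondrial Hsp70 were the clearest. Grpel1 was at 89.5 FPKM (2968 counts) in the D3BKO library and 108.7 FPKM (3461 counts) in the D3BWT library, a ratio of 0.824 (0.784 to 0.865). Grpel2, described in human cells as a redox-sensitive form, was at 7.11 FPKM (288 counts) in the D3BKO library and 5.65 FPKM (220 counts) in the D3BWT library, a ratio of 1.26 (1.05 to 1.505). Grpel1 was thus 12.6 times as abundant as Grpel2 per length in the D3BKO library and 19.2 times in the D3BWT library, a ratio of ratios of 0.655 (0.543 to 0.789).

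Tomm40 and its paralog Tomm40l moved closer together. Tomm40l was at 38.7 FPKM (1120 counts) in the D3BKO library and 40.7 FPKM (1131 counts) in the D3BWT library, and its share of the pair was 39.3% in the D3BKO library and 35.4% in the D3BWT library. The ratio of Tomm40 to Tomm40l in the D3BKO library, divided by that in the D3BWT library, was 0.846 (0.746 to 0.952). Pmpcb over Pmpca gave 1.10 (1.01 to 1.19) on the same measure. Timm17b, the less abundant form of the TIM23 partner, was at 14.0 FPKM (224 counts) in the D3BKO library and 16.5 FPKM (253 counts) in the D3BWT library, and made up 7.41% of the Timm17 pair in the D3BKO library and 7.57% in the D3BWT library. For the pairs of Timm17, Timm8, Timm10 and metaxin genes the interval of the ratio of ratios included 1, from 0.839 to 1.246 for Timm17.

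**Figure D4:**
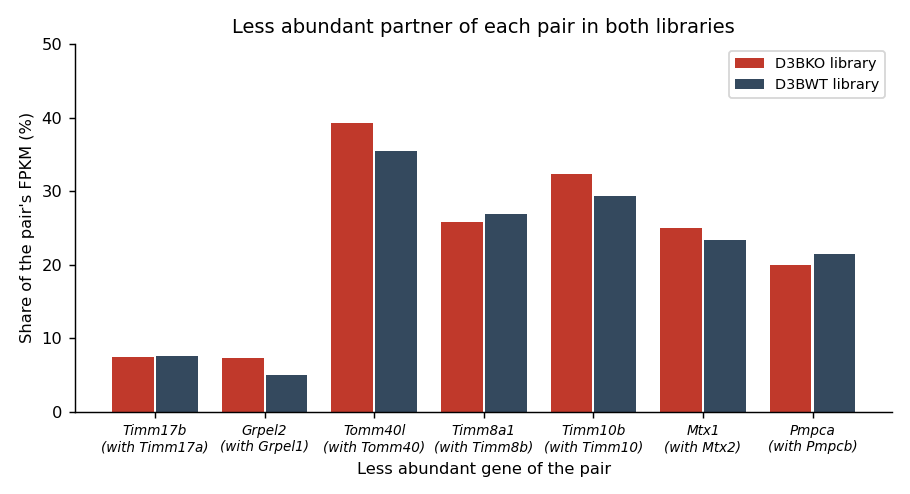
Share of the less abundant gene in the summed FPKM of each pair, in percent, with the D3BKO library left of the D3BWT library. Grpel2 holds 7.36% of its pair in the D3BKO library and 4.94% in the D3BWT library, while Timm17b holds nearly the same share in both.

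The promoters were compared because many import genes were lower together. A promoter was the 250 bases before and 50 after a transcription start, and RefSeq entries matched 28 of the 32 genes. The ETS motif CCGGAAG, searched on both strands, was in 14 of 28 import genes (50%), against 20.8% of the 9340 tested genes with a promoter. It was in 8.86% of all 32851 promoters, or by gene in 9.93% of all 27025 genes with a promoter. The shares of all promoters given below are also per promoter, while those of import and tested genes are per gene. The 14 import genes with the motif were centred at a log2 ratio of -0.10 (median) and the 14 without it at -0.22. Among all tested genes the medians were -0.05 with the motif and -0.02 without it. Timm50, Timm13 and Timm44 were among the genes without it. The NRF1 motif GCGCANGCG was in 4 of 28 import genes (Pam16, Timm13, Timm8b and Tomm20), against 15.8% of tested genes and 6.25% of all promoters. The motif AAGATGGCG of YY1 was in Timm50 and Mtx1, just after the start in both, against 3.69% of tested genes and 1.403% of all promoters. The motif TCAAGGTCA of the estrogen-related receptors was in Timm8b, against 0.343% of tested genes and 0.423% of all promoters, and the cyclic AMP response element TGACGTCA was in none of the 28 import genes, against 3.53% of tested genes and 1.79% of all promoters. In the printed and searched windows no motif of 1 kind overlapped a motif of another kind. A match of letters is a description and not a bound site.

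Genes that work with the import machinery but lie outside its symbols were read from a separate list of 24. Of these, 14 lay below 0 on the log2 scale and 10 above, none was past 1.5-fold, and the median log2 ratio was -0.05. The 58.3% below 0 was near the 53.8% of all tested genes, whose median was -0.03. The largest absolute differences were those of Oxa1l, Romo1, Dnajc19 and Gfer. Oxa1l inserts proteins into the inner membrane from the matrix side, and Romo1 is a small inner membrane protein of the TIM23 complex. Dnajc19 is a J-protein of the motor, and Gfer is the sulfhydryl oxidase that recharges the disulfide relay of the intermembrane space. Oxa1l was at 41.3 FPKM in the D3BKO library and 55.1 FPKM in the D3BWT library, a ratio of 0.750 (0.691 to 0.814). Romo1 was at 342 FPKM in the D3BKO library and 440 FPKM in the D3BWT library, a ratio of 0.777 (0.722 to 0.831). Dnajc19 had a ratio of 0.799 (0.717 to 0.887), close to that of its regulator Pam16. Gfer was higher, at 16.0 FPKM in the D3BKO library and 13.01 FPKM in the D3BWT library, a ratio of 1.23 (1.02 to 1.47).

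Mitochondrial Hsp70 itself, Hspa9, named after its value was seen, was at 624 FPKM in the D3BKO library and 603 FPKM in the D3BWT library, a ratio of 1.04 (1.01 to 1.06). Of the genes whose products hold or drive this motor protein, Timm44, Pam16, Dnajc19 and Grpel1 were lower, Dnlz had a ratio of 0.975 and Grpel2 was higher. Dnajc15, another J-protein on the list, was also lower, with a ratio of 0.883 (0.831 to 0.934). The listed transcript of Hspa9 has 3067 bases.

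Other mitochondrial gene sets of the same libraries also lay below 0 in most members. The median log2 ratio was -0.19 over 78 mitochondrial ribosomal protein genes and -0.27 over 38 complex I subunits, against -0.18 for the import genes. The differences between these sets were not tested. Their median listed lengths also differed, at 1052 bases for the ribosomal, 654 for the complex I and 1418 for the import genes. All tested genes of up to 1059 bases had a median log2 ratio of -0.16. The ribosomal and complex I genes were not centred by length class. Most brown adipocyte markers also lay below 0, and in bulk tissue fewer brown adipocytes and less RNA per cell cannot be told apart. Of 8 such markers 7 lay below 0 and none was at 0 FPKM. The summed level of all 8 was 14594 FPKM in the D3BKO library and 18721 FPKM in the D3BWT library. The exception, Elovl3, which lengthens fatty acids, was at 38.3 FPKM in the D3BKO library and 23.2 FPKM in the D3BWT library, a ratio of 1.65 (1.46 to 1.87). Ucp1 was at 4271 FPKM in the D3BKO library and 4987 FPKM in the D3BWT library, a ratio of 0.857 (0.847 to 0.865). Cox8b, the most abundant of the 8 and with a listed length of 383 bases, was at 5132 FPKM in the D3BKO library and 7608 FPKM in the D3BWT library. The ratio of the marker sums was 0.780, and those of single markers ranged from 0.620 for Dio2 to 1.65 for Elovl3. All 5 macrophage markers were higher in the D3BKO library, with sums of 367 FPKM there and 228 FPKM in the D3BWT library. The sums of the 4 fibroblast markers were 283 FPKM in the D3BKO library and 209 FPKM in the D3BWT library, those of the 5 white adipocyte markers 713 FPKM in the D3BKO library and 332 FPKM in the D3BWT library, and those of the 4 endothelial markers 91.7 FPKM in the D3BKO library and 114 FPKM in the D3BWT library. The 6 listed skeletal muscle markers summed to 3.01 FPKM in the D3BKO library and 2.46 FPKM in the D3BWT library. Of these, Acta1 was higher, at 2.71 FPKM in the D3BKO library and 1.38 FPKM in the D3BWT library. The other 5 had at most 0.28 FPKM (2 counts) in the D3BKO library and 0.74 FPKM (5 counts) in the D3BWT library. Tnnt3, Myh4 and Myh1 were at 0 in the D3BKO library, with 2, 3 and 2 counts in the D3BWT library. The interval of each of these 5 genes included 1, so no direction can be read from them. The part of these cell types in the import values was not tested. The targeted gene is a weak check of the labels, since Dnmt3b had 7 expected counts in the D3BKO library and 15 in the D3BWT library, a ratio of 0.46 (0.155 to 1.17) whose interval included 1.

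Scaling changed the size of the group differences. The deposited FPKM summed to 571034 in the D3BKO library and 606888 in the D3BWT library. With both set to the same total, the medians were -0.12 for the inner membrane and motor genes, -0.12 for the outer membrane genes and -0.04 for the intermembrane space genes. This rescaling adds 0.09 to every log2 ratio of a well-expressed gene.

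**Figure D5:**
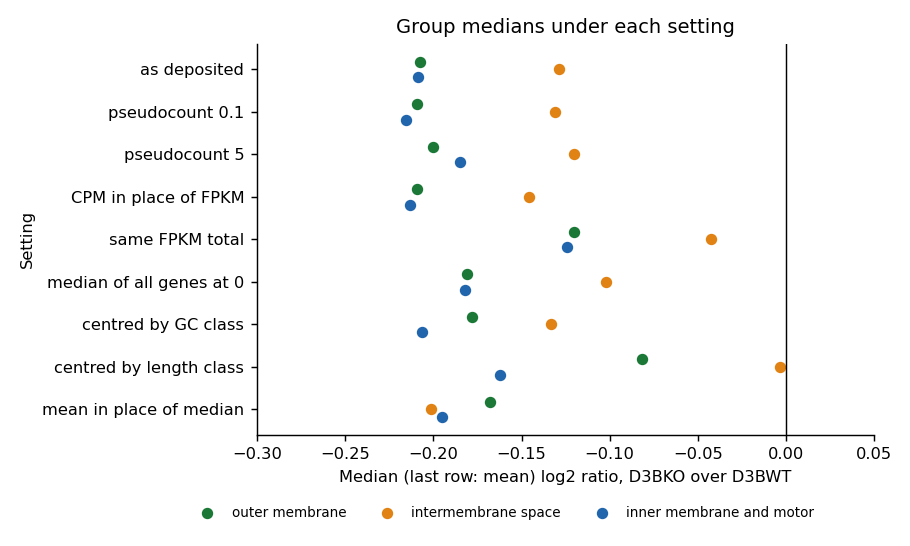
Median log2 ratio of D3BKO over D3BWT for the outer membrane, intermembrane space and inner membrane and motor genes under each setting, with the mean in the last row. Every point lies below 0. Rescaling to the same FPKM total and centring by length class bring the intermembrane space median to -0.04 and -0.003.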

How the data were processed

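Total RNA was extracted from frozen brown adipose tissue, and libraries were made from polyadenylated, fragmented RNA with PCR amplification, per the labels' protocols. Per the file headers, the authors deposited FPKM values, expected counts and transcript lengths by Entrez gene. RSEM and build mm9 are named in the submitters' processing notes, while no source used here gives an aligner. The expected counts deposited by the authors are estimated reads per gene and need not be whole, and 94.1% of them in the D3BKO library and 94.0% in the D3BWT library were within 0.05 of a whole number. A gene absent from a library was set to 0. The floor of 3 counts equals 0.298 CPM in the D3BKO library and 0.310 CPM in the D3BWT library.

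Symbols came from a RefSeq table of assembly GRCm38.p6 by Entrez identifier. The promoter coordinates are of that assembly, not of mm9. Ratios are ratios of FPKM. The 95% intervals are Clopper-Pearson intervals conditional on the summed rounded counts, scaled to library size and listed length, and those of ratios of ratios are exact conditional odds-ratio intervals. Fold thresholds were applied to log2(FPKM + 1). The genes given in full were the 3 with the largest absolute log2 ratio in each group, both genes of a pair, and Tomm40, Timm23 and Timm22. Tomm20, Tomm70a and Timm9 were given in full as well, outside this rule. The members, groups, lists and motifs were chosen with earlier results of these data known. Alternatives were pseudocounts of 0.1 and 5, other filters, folds, scalings, a mean for the median, and centring by classes of length and, added after seeing the data, of GC content, known for 98.7% of tested genes. The 1.5-fold rule was tried on simulated counts with counting noise only, in which genes were either unchanged or well past 1.5-fold. That simulation does not cover differences as small as those of the import genes, or variation among mice. Python 3.11.15, pandas 2.3.3, numpy 2.4.6 and scipy 1.17.1 were used.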

Additional observations from a re-analysis of the deposited data

How the results depend on the processing

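No import gene was past 1.5-fold in either direction under any pseudocount, filter, scaling or centring tried, nor at a fold of 2. With the smaller threshold of 0.32 on the log2 scale the count of lower genes was 4 and that of higher genes 0. At that threshold, across the other settings (chosen after seeing the data), the lower genes were 2 with the same FPKM total, 3 after centring by length or GC class and 4 otherwise, and Grpel2 was the 1 higher gene with a pseudocount of 0.1 and with the same FPKM total. Of the 32 genes, 29 lay below 0 as deposited, with either other pseudocount and with CPM, 27 with the median of all tested genes set to 0, 25 after centring by GC class, 24 after centring by length class and 23 with the same FPKM total. Shares over all tested genes are given only for the values as deposited, so these counts have no background of their own. The median over all import genes ranged from -0.18 to -0.07, lowest with CPM or a pseudocount of 0.1 and closest to 0 after centring by length class. The difference of the medians of inner membrane and outer membrane genes ranged from -0.08 (length classes) to 0.01 (pseudocount 5), so its sign is not fixed. Leaving out genes with counts that are not whole removed no import gene. Leaving out a replicate was not possible with 1 library per genotype, and what depth limits is shown by the counting intervals alone. No paired analysis was possible because each genotype has 1 library and no test was run.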

Other observations

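Tomm6os, a noncoding RNA whose symbol met the rule but which makes no import protein, had 4.65 FPKM (136 counts) in the D3BKO library and 3.81 FPKM (107 counts) in the D3BWT library. Its ratio of 1.22 (0.940 to 1.59) lay above that of Tomm6, 0.865, and its interval included 1. The labels' protocols do not mention strand, so its count where it overlaps Tomm6 is uncertain.

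The order of levels within the machinery was close in both libraries, with 16 of 32 genes at the same rank and 3 shifted by more than 1 rank. Timm50 made the largest shift, to rank 15 in the D3BKO library against rank 10 in the D3BWT library. The GC content of the transcripts also moved with the log2 ratio, with Spearman's rho of -0.23 across the 32 import genes and -0.17 across the 11599 tested genes with a known GC content. Timm50 and Timm13, with GC contents of 58.3% and 58.2%, belonged to the ninth of 10 GC classes, whose median over all tested genes was -0.11.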
